A study of Homo sapiens with 7 samples.

Results

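The libraries labelled as METTL14 knockdown were set against every control library of the same RNA-seq experiment, 3 against 4. Members of the comparison were chosen in a fixed way. Among the 4288 genes with a mean of 50 CPM or more (counts scaled to a common library size by the trimmed mean of M-values, TMM), a gene was taken when all 3 knockdown libraries lay above, or all 3 lay below, all 4 controls. Such genes are called separated here. There were 417 of them, or 9.72% of the genes at that level, out of 66025 gene IDs in the table.

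All 7 libraries came from β-like cells derived in vitro from H1, an established human embryonic stem cell line, and sorted for insulin expression with a fluorescent zinc sensor (DA-ZP1). Knockdown libraries (iKD2 Dox+ a, b and c, n = 3) came from cells carrying a lentiviral, doxycycline (Dox)-inducible shRNA against METTL14 and given Dox during differentiation. Control libraries were of 2 kinds: the same iKD2 line without Dox (iKD2 Dox- b and c, n = 2), and a line with a non-targeting scramble shRNA given Dox (iSCR Dox+ a and b, n = 2). All cells thus carried an shRNA vector and had been selected with puromycin, the knockdown rests on a single hairpin, and neither control kind matches the knockdown cells in both Dox and vector.

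METTL14 and METTL3 form the core of the methyltransferase that places m6A (N6-methyladenosine) in mRNA, METTL14 being the RNA-binding partner. The mark is recognised by reader proteins and removed by erasers, and it influences the splicing, stability and translation of the transcripts that carry it. In β-cells, m6A is known to bear on insulin production and on the transcription factors that hold the cell's identity.

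Total estimated counts ranged from 14875429 to 20639156 per library, and 19570 to 23676 genes had at least 1 count. Libraries of the same kind differed considerably. Across genes at 50 CPM or more, Pearson's r of log2 CPM was 0.82 to 0.87 between knockdown libraries, 0.75 to 0.90 between controls and 0.74 to 0.88 between a knockdown and a control library. The fit put the biological coefficient of variation common to all genes at 1.02. The study describes them as biologically independent, while the labels name no separate cultures, and p-values measure the spread between these samples. Because these are bulk samples, fewer cells of a type and less RNA per cell cannot be told apart in any value below.

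The targeted gene was examined first. METTL14 (ENSG00000145388, chr4:118685368-118715433, plus strand, GENCODE 29 on GRCh38) stood at 18.7 CPM in knockdown library a, 16.4 CPM in b and 49.1 CPM in c. Of the controls, iKD2 Dox- had 39.4 (b) and 22.7 (c), and iSCR Dox+ had 36.2 (a) and 32.4 (b). Values below keep this order of libraries within each kind. Libraries a and b of the knockdown were the lowest of all 7, and the library labelled iKD2 Dox+ c was the highest, so the groups overlapped. The log2 fold change was -0.22 with a standard error (SE) of 0.51 and a 95% interval from -1.30 to 0.86 (edgeR quasi-likelihood test with Benjamini-Hochberg adjustment over 19867 genes, adjusted p = 1.0). An exact two-sided permutation test gave p = 0.657, where 3 libraries against 4 cannot go below 0.0571. With the library labelled iKD2 Dox+ c left out, the log2 fold change was -0.90 (adjusted p = 0.987). Values that changed sign or moved by over 1.5 times without that library are given both ways. The other genes of the writer complex did not separate either. Of the 9 listed, 4 were higher and 5 lower, none passed the test, and their median log2 fold change was -0.017 (-0.045 without library c) against -0.016 over all genes tested.

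**Figure D1:**
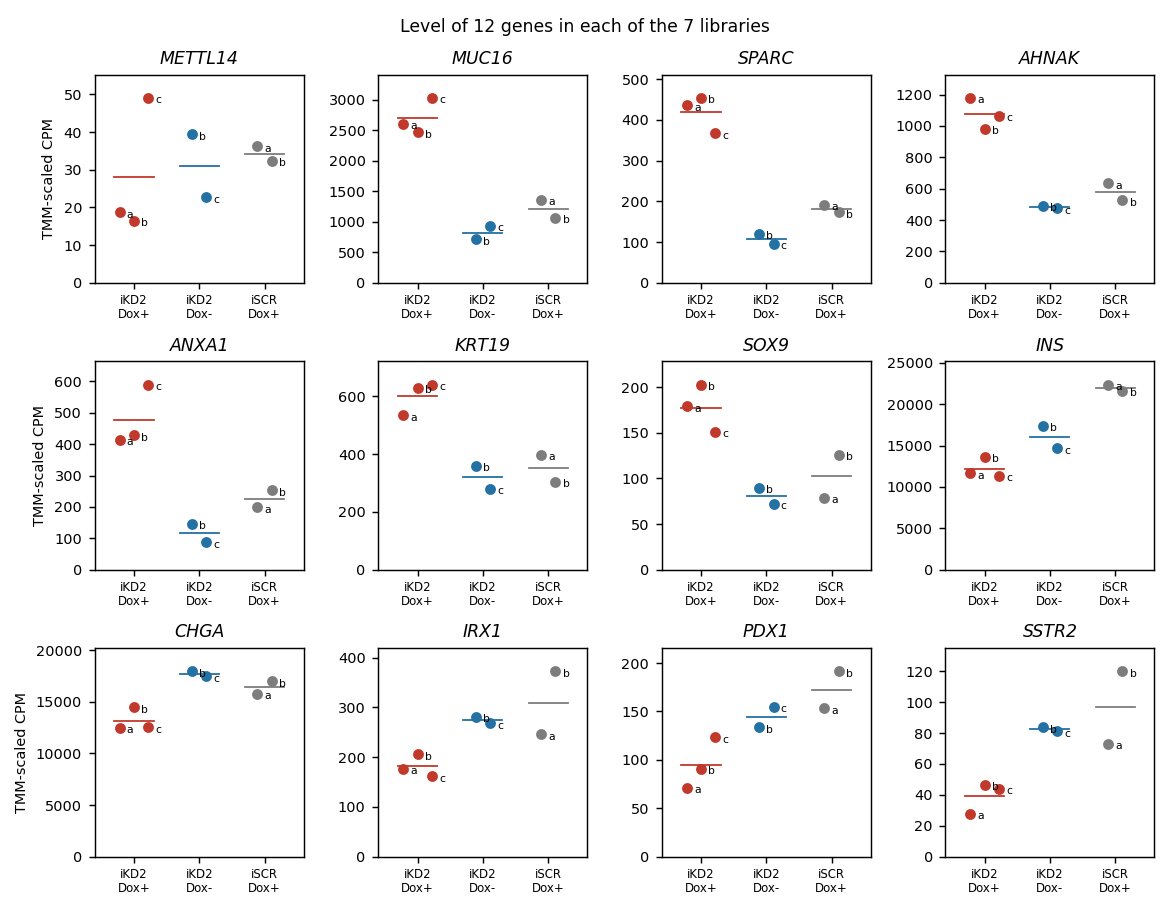
TMM-scaled CPM (vertical axes, each from 0) of 12 genes in each library, with iKD2 Dox+ in red, iKD2 Dox- in blue and iSCR Dox+ in grey; letters are the library letters and bars the group means. METTL14 runs from 16.4 to 49.1 CPM within the knockdown libraries, whereas in the other 11 genes all 3 knockdown libraries lie on one side of the 4 controls.

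Only 3 of 19867 genes passed an adjusted p of 0.05 in edgeR, MUC16, SPARC and AHNAK, and each rose in the knockdown libraries. The background was thus 0.0151% of genes called higher and 0% called lower. EdgeR called 0 lower genes, with 457 at an unadjusted p under 0.05, while DESeq2 called 48 and limma voom 0. Looser filters in edgeR gave 14 and 21 lower calls. At an unadjusted p under 0.05, 453 genes were higher (2.28%) and 457 lower (2.3%). In edgeR with only genes at 50 CPM or more tested, 368 of 4288 had an unadjusted p under 0.05. Small p-values were thus more frequent in that fit. Most tested members of the islet factor, duct, amnion-like and METTL14-bound lists below stood at 50 CPM or more. For these lists the shares of all genes tested are not a background at a like level. Over all genes tested, fold changes were balanced, with a median of -0.016 and quartiles of -0.51 and 0.46 on the log2 scale.

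MUC16 (ENSG00000181143, chr19:8848844-8981342, minus strand) encodes a large membrane mucin of wet epithelia, known as the antigen CA-125. Its level was 2602, 2468 and 3033 CPM in the knockdown libraries, 713 and 929.99 in iKD2 Dox-, and 1362 and 1066 in iSCR Dox+. The lowest knockdown library was far above the highest control, and the iSCR Dox+ libraries were above the iKD2 Dox- libraries. MUC16 was 2.65-fold higher in the knockdown, a log2 fold change of 1.41 (SE 0.17, edgeR adjusted p = 0.0063).

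SPARC (ENSG00000113140, chr5:151661096-151687165, minus strand) encodes a secreted, collagen-binding matrix glycoprotein. It was measured at 436, 455 and 367 CPM in the knockdown libraries, against 121 and 95.8 in iKD2 Dox- and 191 and 173 in iSCR Dox+. Again no library overlapped and the controls stood in the same order, with iKD2 Dox- lowest. Its log2 fold change was 1.53 (SE 0.23, edgeR adjusted p = 0.027), or 2.89-fold.

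AHNAK (ENSG00000124942, chr11:62433542-62556235, minus strand) encodes a giant scaffold protein under the plasma membrane that binds S100 proteins and annexins. Its values of 1180.5, 982 and 1066 CPM in the knockdown compared with 492 and 476 in iKD2 Dox- and 633 and 526 in iSCR Dox+. AHNAK rose 2.02-fold (log2 fold change 1.02, SE 0.15, edgeR adjusted p = 0.027). When library c of the knockdown was left out, the log2 fold changes were 1.31 for MUC16, 1.61 for SPARC and 1.02 for AHNAK, and the adjusted p-values 0.0491, 0.0619 and 0.0741. MUC16 alone thus passed without it. When either iKD2 Dox- c or iSCR Dox+ b was left out, none of the 3 passed and edgeR called 0 genes.

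Promoters of these 3 genes and of INS, the hormone gene that defines these cells, are shown because the results turn on these genes. Each runs from 250 bases before to 50 bases after the gene start of RefSeq (GRCh38.p14), which differs from the GENCODE 29 start in all 4 genes. Capitals mark matches to 4 motifs, chosen after the data had been seen and searched on both strands. For AP-1 the letters were TGANTCA. The TEAD motif was taken as GGAATG. Letters searched for the TATA box were TATAAA, and those for homeodomain sites TAATTA.
MUC16, chr19:9065702-9066001, minus strand: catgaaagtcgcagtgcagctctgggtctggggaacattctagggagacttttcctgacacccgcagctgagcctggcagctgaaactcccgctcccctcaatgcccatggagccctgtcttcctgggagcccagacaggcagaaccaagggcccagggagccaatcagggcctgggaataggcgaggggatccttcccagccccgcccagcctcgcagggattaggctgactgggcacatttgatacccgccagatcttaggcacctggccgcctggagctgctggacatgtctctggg
SPARC, chr5:151686866-151687165, minus strand: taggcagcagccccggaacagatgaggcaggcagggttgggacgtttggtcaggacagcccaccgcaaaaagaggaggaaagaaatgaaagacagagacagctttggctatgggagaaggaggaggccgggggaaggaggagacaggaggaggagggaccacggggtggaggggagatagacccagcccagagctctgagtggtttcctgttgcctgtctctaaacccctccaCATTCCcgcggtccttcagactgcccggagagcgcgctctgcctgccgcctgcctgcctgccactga
AHNAK, chr11:62545777-62546076, minus strand: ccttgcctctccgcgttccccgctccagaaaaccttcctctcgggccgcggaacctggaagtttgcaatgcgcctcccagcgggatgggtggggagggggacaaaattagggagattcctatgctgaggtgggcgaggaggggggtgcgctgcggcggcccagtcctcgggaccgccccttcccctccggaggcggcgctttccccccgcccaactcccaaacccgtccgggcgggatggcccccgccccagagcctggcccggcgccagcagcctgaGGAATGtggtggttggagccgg
INS, chr11:2161160-2161459, minus strand: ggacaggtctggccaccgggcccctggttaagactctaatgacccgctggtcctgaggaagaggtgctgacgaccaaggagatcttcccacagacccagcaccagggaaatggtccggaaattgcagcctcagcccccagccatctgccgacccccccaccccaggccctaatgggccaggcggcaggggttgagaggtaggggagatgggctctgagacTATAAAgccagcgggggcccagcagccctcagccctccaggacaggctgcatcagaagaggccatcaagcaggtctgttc
SPARC and AHNAK each held 1 TEAD match, INS held 1 TATA match and MUC16 held none of the 4. Promoters were matched for 170 of the separated higher genes and 160 of the separated lower genes, out of 27305 promoters in all. The TEAD letters were present in 14% of all promoters, 14.1% of those of higher genes and 7.5% of those of lower genes. AP-1 letters were present in 7.76%, 5.88% and 4.38% respectively, TATA letters in 12%, 7.65% and 5.62%, and homeodomain letters in 4.98%, 1.18% and 1.25%. A match is only a description of these bases.

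Separated genes fell into 223 with all knockdown libraries above all controls (5.2% of genes at 50 CPM or more) and 194 with all below (4.52%). At any level tested, 753 genes lay above (3.79%) and 632 below (3.18%). Separation is what chose these genes and is no test of them. Of the higher genes 36 had a control mean under 50 CPM and reached that level only through the knockdown libraries, and 42 of the lower genes reached it only through the controls. The median log2 fold change of the higher genes was 0.68 (range 0.13 to 2.08), against -0.53 (range -1.37 to -0.12) for the lower genes. A change of at least 2-fold was found in 38 of the higher and 7 of the lower genes. Among all 4288 genes at 50 CPM or more, 56 were at least 2-fold higher and 19 at least 2-fold lower. Gaps between the nearest knockdown and control libraries were mostly narrow, with at least 1.5-fold in 13 higher and 2 lower genes. Just below the level limit lay XYLT2 (49.98 CPM, log2 fold change 1.68) and RSL24D1 (49.997 CPM, -0.95), and just above it VKORC1L1 (50.1 CPM, -0.44) and SAMD12 (50.1 CPM, 0.72).

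**Figure D2:**
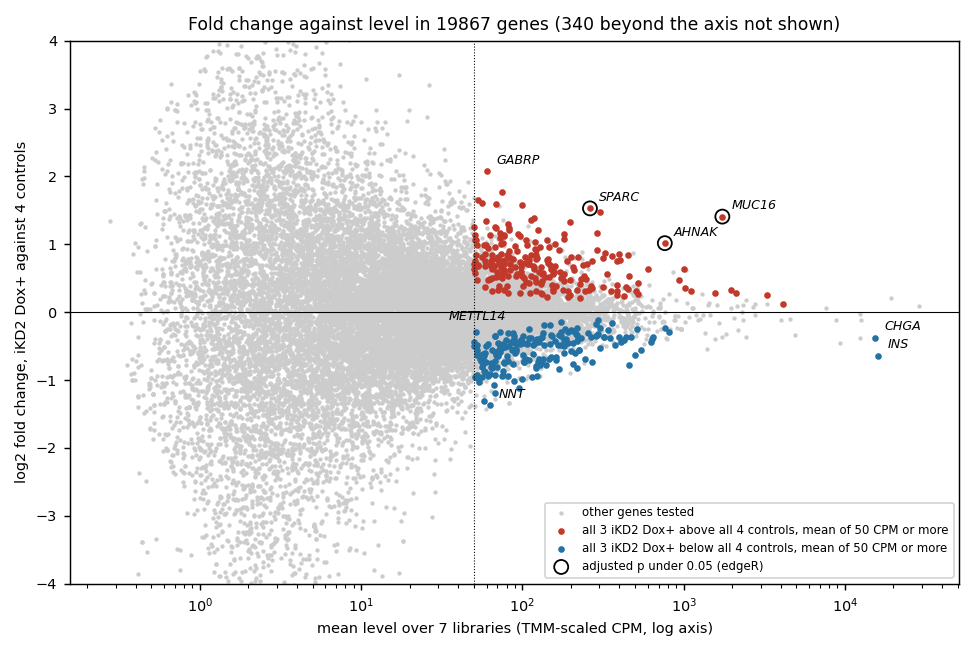
Log2 fold change of the knockdown against the 4 controls (vertical axis) against the mean TMM-scaled CPM over 7 libraries (horizontal log axis), 1 point per gene tested; red and blue points are the 223 and 194 separated genes at 50 CPM or more, and circles mark the 3 genes past an adjusted p of 0.05. The spread of fold changes narrows with level, and the red points reach farther from 0 than the blue ones.

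The 15 highest fold changes among separated genes were those of GABRP, TRIM29, CD9, SCUBE3, PLEKHA7, ITPR2, SPARC, ANXA1, MUC16, DSC3, THBS1, GPRC5A, GSN, VTCN1 and COL6A3, from 2.08 down to 1.26 on the log2 scale. Apart from SPARC and MUC16 none passed the test (edgeR adjusted p from 0.255 to 0.747). GABRP, the π subunit of the GABA-A receptor, stood at 117, 96.4 and 108 CPM in the knockdown, at 24.4 and 9.08 in iKD2 Dox- and at 42.6 and 25.6 in iSCR Dox+, 4.21-fold higher in the knockdown (log2 SE 0.42). ANXA1, a phospholipid-binding annexin, stood at 414, 428 and 589.97 CPM against 147 and 87.3 in iKD2 Dox- and 199 and 253 in iSCR Dox+ (2.78-fold, log2 SE 0.28). In both genes the lowest knockdown library was well clear of the highest control.

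TRIM29, a protein of stratified epithelia, was at 87.4, 125 and 166 CPM in the knockdown, 63.8 and 15.9 in iKD2 Dox- and 26.0 and 42.5 in iSCR Dox+. VTCN1, an immune checkpoint ligand of the B7 family, was at 146, 111 and 114 CPM against 32.2 and 26.2, and 58.3 and 83.5. For these genes the controls themselves spread widely, and which control library was highest differed from gene to gene. DSC3, a desmosomal cadherin, separated by very little, since iKD2 Dox+ b at 120.2 CPM was next to iSCR Dox+ b at 119. PLEKHA7 encodes an adherens junction protein and CD9 a tetraspanin, and their log2 fold changes were 1.59 (SE 0.40) and 1.65 (SE 0.40).

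THBS1, a matrix glycoprotein, was at 202, 138 and 181 CPM in the knockdown, 77.6 and 65.9 in iKD2 Dox- and 37.2 and 89.2 in iSCR Dox+. GSN, which severs actin filaments, was at 371, 209.7 and 326 CPM against 96.9 and 68.4, and 137 and 181. ITPR2, an inositol trisphosphate receptor of the endoplasmic reticulum, was at 115, 172 and 195 CPM against 36.8 and 67.8, and 40.8 and 68.4. Their log2 fold changes were 1.36 (SE 0.29), 1.32 (SE 0.29) and 1.58 (SE 0.30). Of the remaining genes, COL6A3 encodes a chain of collagen VI (1.26, SE 0.31), GPRC5A an orphan receptor (1.35, SE 0.40) and SCUBE3 a secreted EGF-domain protein (1.61, SE 0.49).

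Among the 15 lowest were NNT, CSTPP1, SSTR2, ABCC1, GNAZ, TMEM200A, ARHGAP1, ELAVL3, ZXDC, PNPLA8, LRIG1, STC2, PCNX1 and PSPH, with log2 fold changes from -1.37 to -0.94 and edgeR adjusted p-values from 0.462 to 0.958. NNT, the mitochondrial nicotinamide nucleotide transhydrogenase, stood at 29.1, 32.9 and 36.5 CPM in the knockdown, 71.0 and 50.1 in iKD2 Dox- and 115 and 104 in iSCR Dox+. Knockdown libraries were close together here and the control kinds were apart. SSTR2, a somatostatin receptor of endocrine cells, stood at 27.6, 46.4 and 44.0 CPM against 83.9 and 81.2, and 73.2 and 120.0 (2.28-fold lower, log2 SE 0.33). It was lower in every knockdown library than in any control, and iSCR Dox+ b was the highest.

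ELAVL3, an RNA-binding protein of neurons, stood at 72.5, 63.8 and 54.9 CPM in the knockdown, 113 and 121 in iKD2 Dox- and 145 and 127 in iSCR Dox+. GNAZ, a G-protein α subunit of the inhibitory class, stood at 19.0, 60.6 and 42.6 CPM against 95.1 and 67.8, and 74.5 and 106. The first was clear of the controls in all libraries, whereas GNAZ in iKD2 Dox+ b came close to iKD2 Dox- c. ABCC1 encodes a membrane efflux transporter, LRIG1 a negative regulator of EGF receptor signalling, STC2 a secreted stanniocalcin and PSPH the phosphatase that ends serine synthesis. ZXDC was separated only narrowly, with 40.04 CPM in iKD2 Dox+ b and 40.4 in iSCR Dox+ a.

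**Figure D3:**
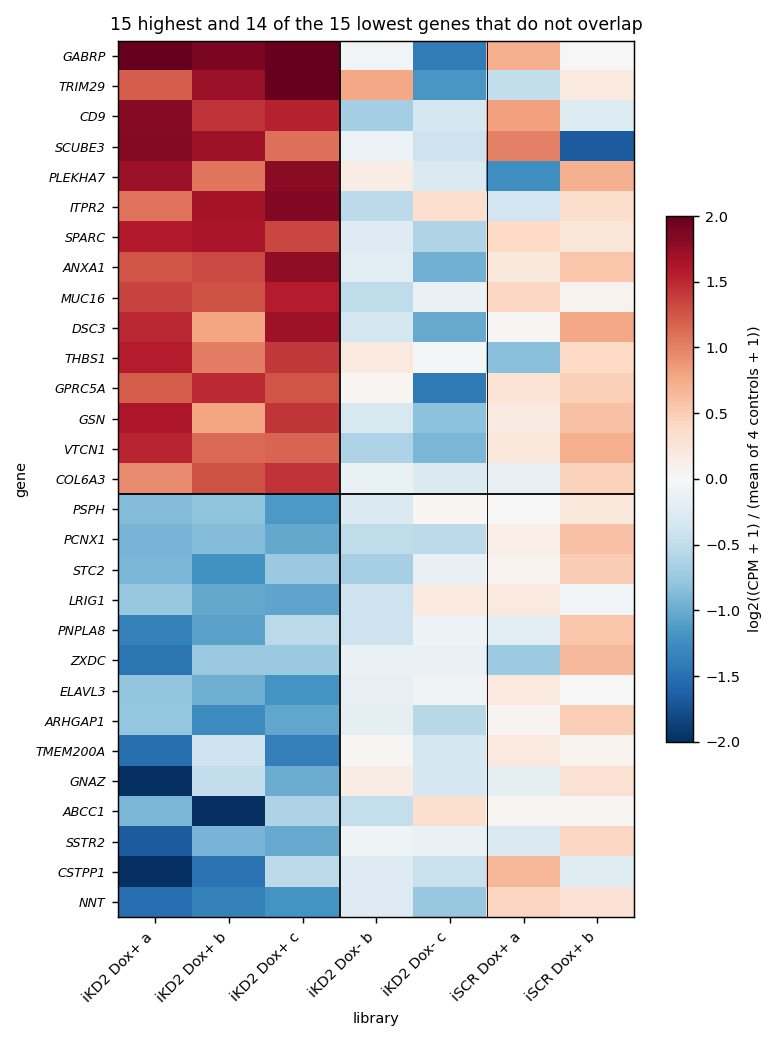
Log2 ratio of each library (columns) to the mean of the 4 controls, with 1 CPM added to both, for the 15 highest and 14 of the 15 lowest separated genes (rows, ordered by fold change); red is above and blue below the control mean, and colours stop at 2 and -2. Ratios ran from 0.78 to 2.15 in the knockdown libraries for the upper 15 genes and from -2.50 to -0.41 for the lower 14.

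Against each control kind separately, the higher separated genes had a median log2 fold change of 0.62 against iKD2 Dox- and 0.66 against iSCR Dox+, and the lower ones of -0.46 and -0.59. The knockdown libraries are shared by both comparisons, so these values are not independent. For MUC16 the values were 1.72 and 1.15, for SPARC 1.95 and 1.20, and for AHNAK 1.15 and 0.89. MUC16 passed against both kinds (edgeR adjusted p = 0.0022 and 0.039). SPARC and AHNAK passed against iKD2 Dox- (edgeR adjusted p = 0.0066 and 0.045) but not against iSCR Dox+ (0.208 and 0.229). ANXA1 likewise passed only against iKD2 Dox- (edgeR adjusted p = 0.024, and 0.465 against iSCR Dox+). Over all 19867 genes, 4 passed against iKD2 Dox- and 5 against iSCR Dox+. VTCN1 had 2.08 against iKD2 Dox- and 0.80 against iSCR Dox+, whereas NNT had -0.88 and -1.74 and PCNX1 -0.42 and -1.33. In the fit of 3 groups, no named gene passed the threshold between the control kinds, and 2 of all 19867 genes did. The lowest value among named genes was that of CD55 (edgeR adjusted p = 0.663), at -1.62 in iKD2 Dox- against iSCR Dox+. With 2 libraries against 2, this cannot show that the control kinds were alike.

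**Figure D4:**
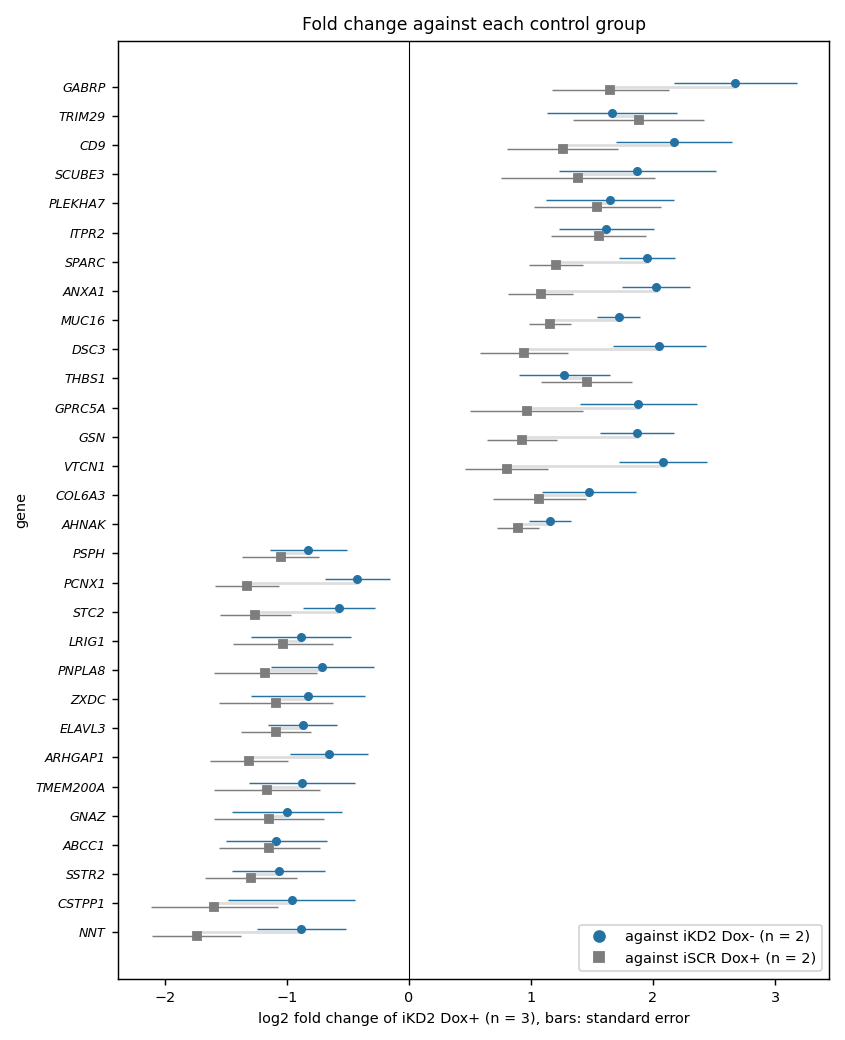
Log2 fold change of iKD2 Dox+ (n = 3) against iKD2 Dox- (blue circles, n = 2) and against iSCR Dox+ (grey squares, n = 2), with standard errors, for the 15 highest and 14 of the 15 lowest separated genes and AHNAK (rows). Every gene lies on the same side of 0 against both control kinds, by the way these genes were chosen, while the distance between the points differs from gene to gene.

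Most endocrine granule genes and 5 of 8 hormone genes were lower in the knockdown, with none past the test against the pooled controls. INS (ENSG00000254647, chr11:2159779-2161341, minus strand) encodes insulin, the hormone that defines β-cells. Its level was 11650.1, 13638 and 11378 CPM in the knockdown, 17412 and 14685 in iKD2 Dox- and 22379 and 21642 in iSCR Dox+. All knockdown libraries were below all controls, with iKD2 Dox- between the knockdown and iSCR Dox+. INS was 1.56-fold lower (log2 fold change -0.64, 95% interval -0.91 to -0.37, edgeR adjusted p = 0.264). In the fit of 3 groups the log2 fold change of INS was -0.39 against iKD2 Dox- (edgeR adjusted p = 0.740) and -0.85 against iSCR Dox+, where it passed (edgeR adjusted p = 0.00967). Against the pooled controls INS passed in 4 of 17 alternatives: both looser filters, DESeq2 and the fit of 3 groups. INS counts were not whole in every library, so that some of its reads were divided with another gene model.

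CHGA, the granule protein chromogranin A, was at 12473, 14480 and 12530 CPM in the knockdown, against 17960.4 and 17470.3 in iKD2 Dox- and 15795 and 17006 in iSCR Dox+ (log2 fold change -0.37, SE 0.09, edgeR adjusted p = 0.427). Among 11 granin and prohormone-processing genes 10 were lower, with a median of -0.35 on the log2 scale. At 50 CPM or more 1 of 10 was separated and lower (10%, beside 4.52% of all genes at that level). The hormone genes had a median of -0.33, and 3 of them were higher. INS was the 1 of 4 hormone genes at 50 CPM or more to separate (25%, beside 4.52%). GCG, the glucagon gene of α-cells, overlapped between groups at 5050.3, 9511 and 8569 CPM against 12860.0 and 9093, and 10743 and 9471.

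Islet transcription factors showed a like pattern. Of 24 tested, 17 were lower and 7 higher, with a median log2 fold change of -0.29. None passed the adjusted test, 4 had an unadjusted p under 0.05 and were lower (16.7%, beside 2.3% of all genes tested), and 5 of 19 at 50 CPM or more were separated and lower, which is 26.3% beside 4.52% of all genes at that level. PDX1, which is needed for pancreas formation and INS transcription, stood at 71.2, 90.7 and 123 CPM in the knockdown, 134 and 155 in iKD2 Dox- and 153 and 191 in iSCR Dox+. Knockdown libraries were below every control, at a log2 fold change of -0.74 (SE 0.25).

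PAX6 and INSM1, also endocrine factors, were separated by little. PAX6 stood at 189, 368 and 338 CPM in the knockdown and between 371 and 415 in the controls, so only iKD2 Dox+ a was far from them. INSM1 stood at 326, 316 and 376 CPM against a control range of 383 to 515. IRX1, a homeobox gene, was at 177, 206 and 161 CPM against 282 and 268, and 246 and 373 (log2 fold change -0.69, SE 0.20).

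Genes of glucose sensing and secretion had a median log2 fold change of -0.28, with 16 of 23 lower. At 50 CPM or more 2 of 17 were separated and lower (11.8%, beside 4.52% of all genes at that level). Another 1 was separated and higher (5.88%, beside 5.2%). GAD2, the GABA-synthesising enzyme of β-cells and neurons, was at 83.5, 81.8 and 58.1 CPM in the knockdown, 98.1 and 91.8 in iKD2 Dox- and 155 and 145 in iSCR Dox+. SYT7, a calcium sensor of exocytosis, was at 433, 452 and 508 CPM with controls from 517 to 599. CACNA1C, a calcium channel subunit, was separated in the other direction at 78.7, 84.4 and 91.2 CPM, just above iKD2 Dox- b at 77.7. DDC, an enterochromaffin marker for amine synthesis, was lower (169, 181 and 184 CPM, controls 254 to 279). It was the 1 of 5 enterochromaffin markers at 50 CPM or more to separate (20%, beside 4.52% of all genes at that level).

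Duct and simple epithelial genes were higher in 12 of 14 cases, with a median log2 fold change of 0.68. None passed the adjusted test, 7 had an unadjusted p under 0.05 and were higher (50%, beside 2.28% of all genes tested), and 5 of 9 at 50 CPM or more were separated and higher (55.6%, beside 5.2% of all genes at that level). PROM1, below 50 CPM, went the other way, with all knockdown libraries below all controls (log2 fold change -1.17, SE 0.55, unadjusted p = 0.0479 in edgeR). SOX9, a factor of pancreatic progenitors and ducts, stood at 179, 203 and 151 CPM in the knockdown, 89.9 and 72.4 in iKD2 Dox- and 78.5 and 126 in iSCR Dox+ (log2 fold change 0.95, SE 0.25). KRT19, a duct keratin, stood at 535, 629 and 641 CPM against 359 and 281, and 397 and 304 (0.84, SE 0.17). CLDN4, a tight junction claudin, stood at 339, 241 and 212 CPM against 126 and 78.2, and 124 and 146 (1.15, SE 0.24). In each the controls of both kinds lay together below the knockdown libraries.

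KRT8 and KRT18, the paired keratins of simple epithelia, had log2 fold changes of 0.64 (SE 0.20) and 0.92 (SE 0.22). Their genes overlap and have many processed copies, and their counts were not whole, so these values are uncertain. Against iKD2 Dox- KRT8 was higher by 0.96 and against iSCR Dox+ by 0.38 on the log2 scale.

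Genes of amnion-like and surface ectoderm cells had the highest median of all lists with 10 or more members, 1.30 on the log2 scale. Of 16 tested, 14 were higher, 1 passed the test (MUC16), 9 had an unadjusted p under 0.05 and were higher (56.2%, beside 2.28% of all genes tested), and 6 of 10 at 50 CPM or more were separated and higher (60%, beside 5.2%). Of those 6, 2 reached 50 CPM only through the knockdown libraries, and the list was made with earlier results known. GATA3, a transcription factor of these cells, stood at 81.9, 64.2 and 72.0 CPM against 27.7 and 7.16 in iKD2 Dox- and 48.7 and 55.9 in iSCR Dox+. CD55, a complement regulator, stood at 107, 139.7 and 123 CPM against 31.3 and 20.01, and 72.2 and 85.1. In both, iSCR Dox+ was nearer to the knockdown than iKD2 Dox- was, and the median of the list was 2.05 against iKD2 Dox- and 0.87 against iSCR Dox+.

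Mesenchymal and matrix genes were higher in 12 of 16 cases (median 0.66), with SPARC past the test. Another 4 were lower. Among them was the mesenchymal marker VIM, at a mean of 569 CPM (log2 fold change -0.47, SE 0.20, unadjusted p = 0.0311 in edgeR), which overlapped between the groups. At 50 CPM or more 2 of 8 were separated and higher (25%, beside 5.2% of all genes at that level). COL5A1, a fibrillar collagen chain, was separated at 189.7, 176 and 205 CPM against 68.4 and 119, and 142 and 140.5. Among annexins and their S100 partners 10 of 15 were higher (median 0.22). ANXA1 and S100A11 were separated, as 2 of 9 at 50 CPM or more (22.2%, beside 5.2% of all genes at that level). S100A11 was at 179, 142 and 179 CPM against 71.3 and 61.8, and 96.3 and 125.

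Summed markers of other cell types include genes named above as separated, so these sums repeat that choice and are no further evidence. The 5 duct markers summed to 836 to 963 CPM in the knockdown libraries and 432 to 576 in the controls. Of these, KRT19 and SOX9 were separated, while KRT7, CFTR and SPP1 overlapped between the groups. The 6 amnion-like or surface ectoderm markers summed to 378 to 485 CPM and to 72.5 to 201, and the 5 mesenchymal markers to 603 to 1043 and to 243 to 629. Among the amnion-like markers GABRP, VTCN1 and, below 50 CPM, TFAP2B were separated, while TFAP2A, TP63 and KRT5 overlapped. The 5 β-cell markers summed to 11759 to 13919 CPM in the knockdown and 15015 to 22773 in the controls, but INS made up 96.8% to 98.3% of each sum. Of the other β-cell markers PDX1 was separated, while IAPP, NKX6-1 and MAFA overlapped, with IAPP at 29.5, 21.2 and 5.67 CPM in the knockdown and 10.3 to 19.9 in the controls. Acinar, endothelial and pluripotent markers overlapped between the groups, summing to at most 33.1, 17.1 and 77.8 CPM in any library. Sums of α-cell, δ-cell, enterochromaffin and hepatic markers overlapped as well, as did the mesenchymal ones. No marker was at 0 in all 7 libraries, and INS, the first marker of the labelled cell type, took 1.14% to 2.16% of the counts of a library. Whether other cells in the sort had a part in the differences was not tested.

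**Figure D5:**
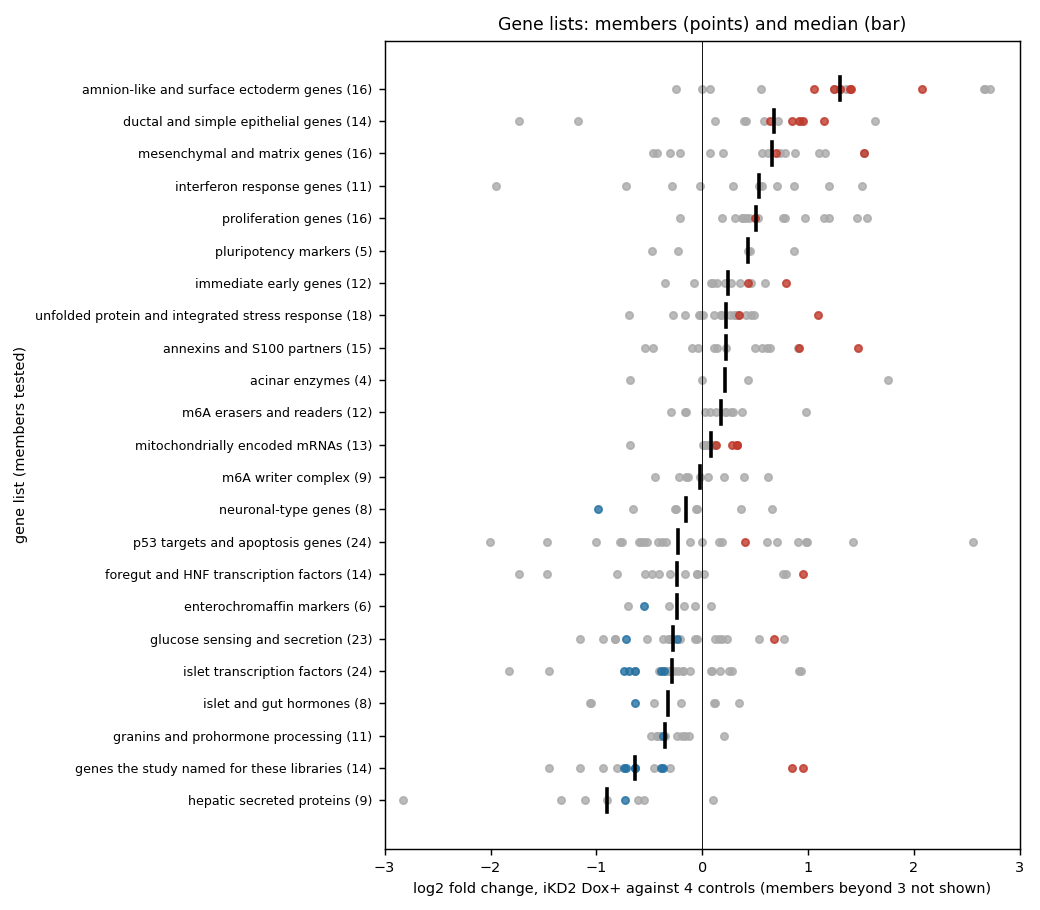
Log2 fold change of the knockdown against the 4 controls (horizontal axis) for the members of each gene list with at least 4 members tested (rows, number tested in brackets); points are genes, red or blue where separated at 50 CPM or more, and black bars are medians. Medians run from 1.30 for amnion-like and surface ectoderm genes to -0.90 for hepatic secreted proteins.

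Proliferation genes were higher in 15 of 16 cases with a median log2 fold change of 0.51. TOP2A, which untangles DNA at division, was the 1 of 5 at 50 CPM or more to separate (20%, beside 5.2% of all genes at that level). It stood at 95.9, 82.5 and 92.8 CPM against 72.8 and 73.1, and 79.2 and 30.8. Its 95% interval ran from -0.20 to 1.19. Genes of the p53 response and apoptosis had a median of -0.23, with 10 higher and 14 lower. MCL1, which blocks apoptosis, was separated by less than any other named gene at 50 CPM or more, with 387.6 CPM in iKD2 Dox+ a and 386 in iSCR Dox+ b. It was the 1 of 3 in its list at that level to separate (33.3%, beside 5.2% of all genes at that level).

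Stress response genes were mostly higher by small amounts. In the unfolded protein and integrated stress response list 13 of 18 were higher (median 0.22). At 50 CPM or more 2 of 11 were separated and higher (18.2%, beside 5.2% of all genes at that level). DDIT4, an mTORC1 inhibitor induced by stress, was at 104, 115 and 95.2 CPM against 50.4 and 60.1, and 27.3 and 58.01 (log2 fold change 1.10, SE 0.32), and CALR, an endoplasmic reticulum chaperone, had 0.35 (SE 0.13). Of 12 immediate early genes 10 were higher (median 0.24), with KLF6 at 0.80 (SE 0.21) and IER2 at 0.44 (SE 0.16). These were the 2 of 11 at 50 CPM or more to separate (18.2%, beside 5.2%). Interferon response genes had a median of 0.54 that was -0.032 without the library labelled iKD2 Dox+ c.

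Mitochondrially encoded mRNAs differed little, with a median of 0.085. MT-ND4, MT-ND4L, MT-CO2 and MT-CYB were separated at log2 fold changes from 0.13 to 0.33, as 4 of 12 at 50 CPM or more (33.3%, beside 5.2% of all genes at that level), and mitochondrial transcripts took 3.12% to 3.55% of counts over all libraries. Hepatic secreted proteins had a median of -0.90 with 8 of 9 lower. Only 4 of the 9 stood at 50 CPM or more, with a median of -0.64. Over the alternatives the median of the whole list ran from -1.10 to -0.52. SERPINA1, the α1-antitrypsin gene, was separated at 204, 211 and 178 CPM against 328 and 305, and 403 and 272. It was the 1 of 4 in its list at 50 CPM or more to separate (25%, beside 4.52% of all genes at that level). Neuronal-type genes had a median of -0.15 (-0.25 without library c of the knockdown), foregut and HNF transcription factors of -0.24 (-0.37), and m6A erasers and readers of 0.18. Pluripotency markers had a median of 0.43 (-0.038 without library c), acinar enzymes of 0.22 (-0.13) and endothelial markers of -0.41. The last 3 lists had at most 5 genes tested.

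The 14 genes that the study named for these libraries had a median log2 fold change of -0.64. They were chosen on these same samples, so their direction is not independent evidence. At 50 CPM or more, 6 of 10 were separated and lower (among them INS, CHGA, PAX6, PDX1 and GAD2) and 2 separated and higher (SOX9, KRT19), which is 60% and 20% beside 4.52% and 5.2% of all genes at that level. HADH, a β-oxidation enzyme, and ATP1B2, a sodium pump subunit, were separated but below 50 CPM, at log2 fold changes of -1.16 (SE 0.47) and -0.94 (SE 0.46). FOXA2 and NR5A2 overlapped between the groups, at -0.30 (SE 0.20) and -0.80 (SE 0.97), and NR5A2 was at -1.32 without library c of the knockdown. MAFA, a factor of mature β-cells, had no count in iKD2 Dox+ a, which allows up to 3 counts, and stood at 3.57 and 20.04 CPM in b and c, against 38.3 and 5.58 in iKD2 Dox- and 4.76 and 37.2 in iSCR Dox+. At this depth and spread no difference in MAFA was detectable (-1.44, SE 1.37, and -3.59 without library c of the knockdown, edgeR adjusted p = 0.952).

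Transcripts with METTL14 binding sites, as mapped by the study in the EndoC-βH1 β-cell line by crosslinking and immunoprecipitation (eCLIP), were measured for 745 of the 902 symbols read from its table, which are fewer than the transcripts it counts. Their median log2 fold change was -0.066, against -0.016 over all genes tested, with 333 higher and 412 lower. None passed the adjusted test (edgeR). An unadjusted p under 0.05 was found in 18 higher (2.42%) and 44 lower genes (5.91%), beside 2.28% and 2.3% of all genes tested. That background is not at a like level, since 511 of the 745 stood at 50 CPM or more, beside 4288 of 19867 genes tested. Of the 511 at 50 CPM or more, 17 were separated and higher (3.33%) and 38 separated and lower (7.44%), beside 5.2% and 4.52% of all genes at that level.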

How the data were processed

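Sorted cells were profiled by RNA-seq with the SMARTer Stranded kit for total RNA. The authors trimmed adapters (fastp is listed in the submitters' processing notes), aligned reads to the transcriptome with Kallisto and summed transcripts per gene with tximport. The deposited values are estimated counts per gene, not scaled. Versions, genome build and strand setting are not given in the sources used here. Kallisto divides reads among genes they fit, so overlapping genes and near-identical copies are uncertain. Of the 417 separated genes, 254 had a count that was not whole (within 1e-06) in some library. The same held for 2584 of all 4288 genes at 50 CPM or more.

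Counts were rounded, filtered with filterByExpr by arm (19867 genes), given TMM factors and fitted in edgeR 4.0.16 (robust quasi-likelihood, two-sided, Benjamini-Hochberg over all genes tested) in R 4.3.3, with iKD2 Dox+ (3) against iKD2 Dox- and iSCR Dox+ together (4). A fit of 3 groups gave values against each control kind. Totals of 14875429 to 20639156 counts per library set the depth. A count of 0 allows up to 3 counts, for counting error only, since reads copied by PCR are not independent. The study's methods state TMM and voom, so limma 3.58.1 voom was an alternative, beside DESeq2 1.42.0, other scalings and filters, a replicate block, whole counts only and each library left out. One alternative, testing only genes at 50 CPM or more, was added after the data had been seen. The scripts were tested on simulated data.

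Coordinates and names came from GENCODE 29 (57402 of 66025 IDs matched) and a gene name table (59369 matched). Named genes were METTL14, genes at 5 CPM or more that passed an adjusted p of 0.05, and the study's 14 genes. Also named were the 15 highest and 15 lowest separated genes with a symbol and separated members of the gene lists. The motifs, PROM1, VIM and the genes around the level limit were added after the values were seen. Genes of the comparison and the lists were chosen with earlier results of these data known. No sample was left out. Some named genes are not reported here.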

Additional observations from a re-analysis of the deposited data

Results flagged for a closer look

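In 5 of the 69 named genes, 1 of the 4 control libraries stood apart from the other controls beyond the 95% limit of Dixon's test, where chance flags about 1 in 20 groups. COL6A3 was at 58.7 CPM in iSCR Dox+ b, with the other controls from 34.2 to 38.4. CSTPP1 was at 123 CPM in iSCR Dox+ a and at 56.6 to 65.7 in the others. DDC was at 279 CPM in iSCR Dox+ a and at 254 to 256 in the others. KRT18 was at 312 CPM in iSCR Dox+ a and at 168 to 192 in the others. TOP2A was at 30.8 CPM in iSCR Dox+ b and at 72.8 to 79.2 in the others. Groups of 2 and 3 libraries were not examined in this way.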

How the results depend on the processing

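The count of 3 genes past an adjusted p of 0.05 depended on the filter and the tool. It was 54 without a filter beyond 1 count, 67 with a total of at least 10 counts, 1 with a mean CPM of at least 5, 84 with the DESeq2 Wald test, 23 with limma voom, 34 with voom and sample weights, 7 with 3 groups fitted, and 19 when only genes at 50 CPM or more were tested, an alternative chosen after seeing the data. Leaving out one library gave 0 to 6 calls: 2 without library a of iKD2 Dox+, 6 without b and 1 without c, then 1 without library b of iKD2 Dox- and 0 without c, and 3 without library a of iSCR Dox+ and 0 without b (799 and 814 genes at an unadjusted p under 0.05 in the fits with 0). MUC16 passed in 15, SPARC in 11 and AHNAK in 12 of 18 alternatives, with adjusted p up to 0.118, 0.235 and 0.215. The 417 separated genes became 743 at 20 CPM, 234 at 100 CPM, 163 with whole counts only (fewer genes at each stricter limit), and 601 to 774 with one library left out, where fewer libraries have to separate. Without the library labelled iKD2 Dox+ c there were 716, of which 398 were among the 417. Other scalings gave 411 or 412, with 377 to 390 of the 417 shared. The METTL14 log2 fold change was 0.0063 without iKD2 Dox+ a and 0.054 without iKD2 Dox+ b, and ran from -0.90 to 0.054 over the libraries left out; the cause was not tested. The other 68 named genes kept their direction in every alternative run. All of them but GCG, FOXA2, NR5A2 and MAFA were separated, which leaves little room for a change of direction. For the separated genes a kept direction is therefore no further evidence. Medians of 7 of 25 lists changed sign in at least 1 alternative (m6A writers, neuronal-type, p53 and apoptosis, pluripotency, acinar, endothelial and interferon genes). Library letters gave no clear pairing, as deviations of same-letter libraries correlated at -0.041 to 0.11 across arms and those of other letters at -0.072 to 0.092. Within the iKD2 line the deviations of Dox+ b and Dox- b correlated at 0.11 and those of Dox+ c and Dox- c at -0.040. With so few pairs, pairing within that line could not be settled. With the letter as a replicate block 3 genes were called and METTL14 was at -0.41. Depth was 14875429 counts or more in each library.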
